A study of Mus musculus with 6 samples.

Results

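The 10 genes Npas4, Nr4a1, Nr4a2, Nr4a3, Arc, Btg2, Gadd45b, Dusp1, Sik1 and Ier2 are activity-induced genes outside the AP-1 and Egr families. They were chosen by symbol, and each of the 10 had 1 row among the 43346 gene rows of the deposited table and passed the filter on low counts that left 15030 genes for testing. Brain RNA was sequenced from 6 adult male mice on the C57BL/6 strain, 3 labelled Kdm6a deficient and 3 labelled wild type. Litters came from females with a loxP-flanked Kdm6a and males with a Thy1-Cre transgene, whose promoter drives Cre recombinase mainly in neurons, so that cells without Cre keep an intact Kdm6a. The wild-type mice are littermates, and the labels do not say which of the loxP and Cre alleles they carry. Kdm6a is an X-linked demethylase of histone H3 lysine 27.

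Activity-induced genes are transcribed within minutes when calcium enters a stimulated neuron, without the need for new protein, and their transcripts are short-lived. Some encode transcription factors that switch on a later set of genes, and others act directly at synapses or dampen the signal that induced them. Many respond to CREB, which binds the cAMP response element, to serum response factor or to MEF2 factors. In brain their levels follow what the animal was doing shortly before the tissue was taken, and several also respond to stress hormones and growth factors.

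Of the 10 genes, 7 had a RefSeq promoter sequence (GRCm38.p6), namely Npas4, Nr4a1, Nr4a2, Nr4a3, Btg2, Gadd45b and Dusp1. The core of the cAMP response element, TGACG on either strand, was found within 250 bases before the start in 6 of these 7, against 17.8% of all 32851 promoter windows of that length. The full palindrome TGACGTCA, which holds the core on both strands with overlap, was found in 2 of the 7, Btg2 and Dusp1, against 1.55% of windows. The Nr4a monomer site AAAGGTCA was found in 0 of the 7 against 1.34%. The serum response element was searched on both strands as CC, then 6 letters of A or T, then GG. It was found in 0 of the 7 against 1.47%. Only exact matches within these windows were searched, so variant or more distant sites would be missed. A match describes letters only, and the RNA counts do not test whether a factor bound there. To show how the cores are arranged, the 30 bases around the closest pair follow for each of the 6 promoters that hold the core, read 5′ to 3′ along the gene with every TGACG, or CGTCA where it lies on the other strand, in capitals.
Npas4: ccgttcgaCGTCAcgggaTGACGtcggaag
Nr4a1: ctgCGTCAatggaaccccgcgtgCGTCAcg
Nr4a2: gccgggcTGACGgggccgcTGACGcgcttg
Nr4a3: gtcccatgtCGTCAcatTGACGtctcgcat
Btg2: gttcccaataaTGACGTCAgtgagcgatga
Dusp1: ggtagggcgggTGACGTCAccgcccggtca
These stretches lie at chr19:4990129-4990158 (minus strand) for Npas4, chr15:101266610-101266639 (plus) for Nr4a1, chr2:57124104-57124133 (minus) for Nr4a2, chr4:48045083-48045112 (plus) for Nr4a3, chr1:134079303-134079332 (minus) for Btg2 and chr17:26508597-26508626 (minus) for Dusp1. For Npas4, Nr4a1, Nr4a3, Gadd45b and Dusp1 the gene starts further upstream in GENCODE M21 than in RefSeq. Their windows of 250 bases can therefore lie partly or wholly within a transcribed region. The Nr4a3 stretch shown lies before the GENCODE start at 48045153.

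A longer view is given for Btg2 and Nr4a2, the first a gene with lower values in every deficient mouse and the second the only one of the 10 with a positive fold change. The 250 bases before the start carry 1 palindrome in Btg2 and 4 separate cores in Nr4a2.
Btg2: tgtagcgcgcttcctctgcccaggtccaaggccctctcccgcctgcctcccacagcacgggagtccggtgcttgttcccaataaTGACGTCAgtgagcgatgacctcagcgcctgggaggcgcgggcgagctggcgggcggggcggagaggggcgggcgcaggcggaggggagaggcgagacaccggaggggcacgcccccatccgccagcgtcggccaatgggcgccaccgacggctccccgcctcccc
Nr4a2: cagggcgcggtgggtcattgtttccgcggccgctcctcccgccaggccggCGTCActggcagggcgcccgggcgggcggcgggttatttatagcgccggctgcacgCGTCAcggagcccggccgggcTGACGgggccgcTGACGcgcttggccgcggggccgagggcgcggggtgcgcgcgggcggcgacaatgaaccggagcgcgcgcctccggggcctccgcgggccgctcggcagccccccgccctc
The Btg2 stretch is chr1:134079156-134079405 and the Nr4a2 stretch chr2:57124004-57124253, both on the minus strand of GRCm38.p6. Both genes were picked for this view by their values, and 6 of the 7 promoters hold the core. The pair therefore cannot show whether the core goes with a difference between genotypes. The Gadd45b promoter held no core, and its deficient values also all lay below wild type.

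The libraries held 18542590 to 24531408 counts. Levels are in CPM, which are counts adjusted for library size with TMM factors, and the 3 values of a genotype are always listed in the order of its mice 1, 2 and 3. Kdm6a, counted over the whole gene and not only the loxP-flanked part, had 22.3, 25.2 and 25.2 CPM in the deficient group against 34.5, 35.0 and 34.3 CPM in the wild-type group, so the libraries followed their labels (log2 fold change -0.51 with SE 0.07, edgeR adjusted p = 0.00780). Neuron markers were present in every library, with a summed level of 1155 to 1324 CPM over the 5 excitatory markers in the deficient mice and 1194 to 1246 CPM in the wild-type mice.

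Most of the 10 genes had lower values in the deficient brains, but edgeR called none of them, and the genotypes overlapped for 5. A fold change below 0 was seen in 9 of the 10 genes, against 49.2% of all genes tested, and the median log2 fold change was -0.18, against 0.0018 over all genes. At a false discovery rate (FDR) of 5% edgeR called 0 of the 10, against 0.0466% of all genes (7 of 15030), limma-voom called 0, against 0.0333%, and DESeq2 called 1, Npas4, against 0.141%. At an unadjusted edgeR p under 0.05 there were 2, Npas4 and Btg2, both lower, against 3.30% of all genes. All 3 deficient mice lay below all 3 wild-type mice for 5 of the 10 genes, Npas4, Arc, Btg2, Gadd45b and Ier2, against 5.49% of all genes, and for none did they all lie above, against 5.70%. These 10 genes respond to the same stimuli and are not independent of each other. They were also chosen with earlier results of these data known, so the shares above describe them and do not test them. In whole-tissue RNA, fewer expressing cells and less RNA per cell cannot be told apart. The 6 hippocampus markers, all detected, had a summed level of 181.8 to 195.7 CPM in the deficient mice and 200.7 to 209.4 CPM in the wild-type mice. These sums did not overlap, but the genotypes overlapped for each of the 6 markers alone. Wfs1 made up the largest part of the sum, with means of 124.5 CPM in deficient and 136.3 CPM in wild-type mice. It gave 111.1 of 181.8 CPM in deficient mouse 2 and 136.3 of 200.7 CPM in wild-type mouse 3. Without Wfs1 the sums overlapped. Of these 6, 5 had a log2 fold change below 0, among them Dsp at -0.75 (SE 0.30, unadjusted p = 0.0481, edgeR adjusted p = 0.850), and their part in these differences was not tested.

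**Figure D1:**
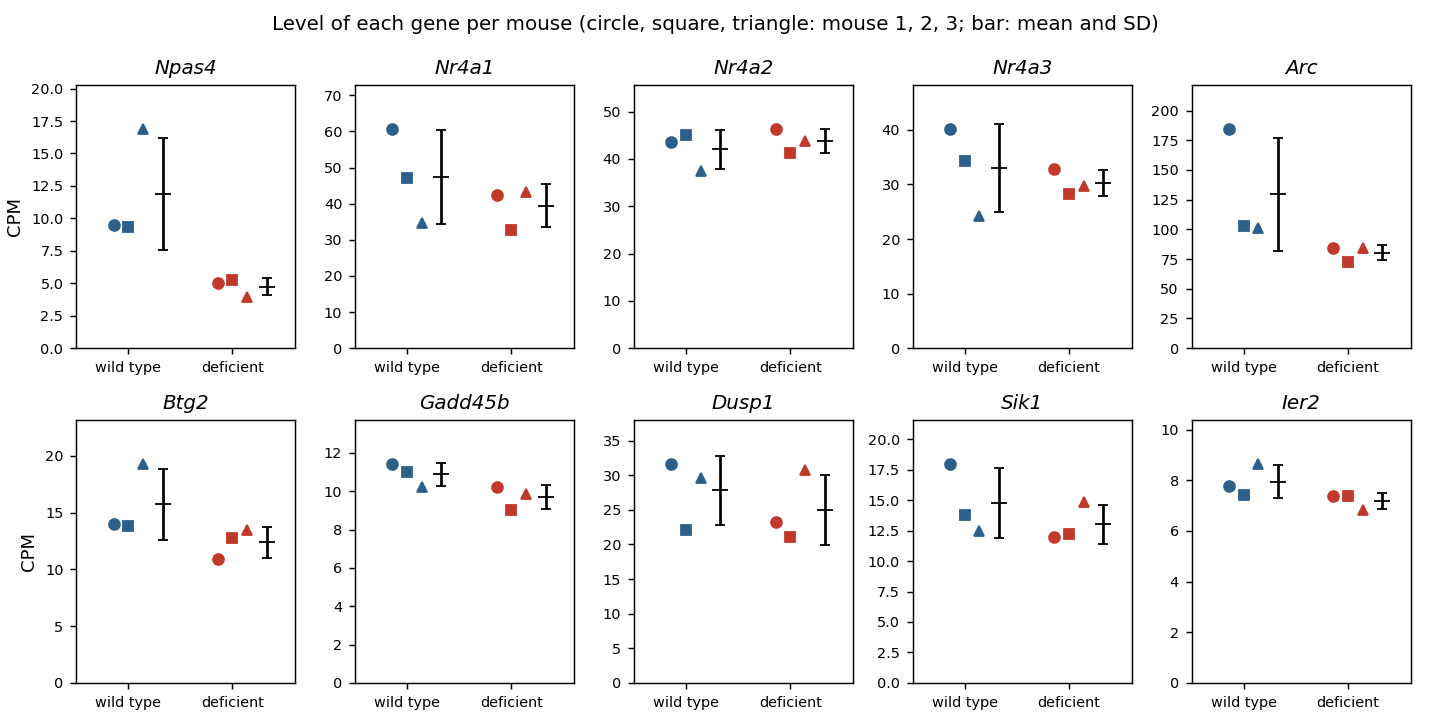
Level in CPM (vertical axes, each starting at 0) of the 10 genes in each mouse, wild type in blue and Kdm6a deficient in red, with circles, squares and triangles for mice 1, 2 and 3 and black bars for the mean and SD (n = 3). Npas4, Arc, Btg2, Gadd45b and Ier2 show no overlap between genotypes, and for Npas4 and Arc 1 wild-type mouse lies far above the other two.

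Npas4 (chromosome 19, 4984355 to 4990316, minus strand, GRCm38) had the largest difference of the 10. It encodes a neuron-specific transcription factor of the bHLH-PAS family that is induced by calcium entry and regulates inhibitory and excitatory synapses. The deficient mice had 112, 130 and 81 counts, or 4.998, 5.28 and 3.97 CPM. The wild-type mice had 213, 172 and 404 counts, or 9.45, 9.32 and 16.9 CPM. Every deficient mouse was below every wild-type mouse, and wild-type mouse 3 stood far above the other two. The means were 4.75 ± 0.691 and 11.9 ± 4.34 CPM (SD, n = 3 each), so that the deficient level was 39.8% of wild type (log2 fold change -1.33, SE 0.28). With an unadjusted p of 0.00335 it ranked 92 of 15030 genes in edgeR, and its adjusted p was 0.534.

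The call for Npas4 depended on wild-type mouse 3 and on the tool. Without that mouse the log2 fold change was smaller, at -0.98 (SE 0.14), yet the edgeR adjusted p was 0.0173, in a fit that called 0.112% of genes. DESeq2 gave -1.33 (SE 0.21) with an adjusted p of 1.9e-06, and limma-voom -1.29 (SE 0.24) with an adjusted p of 0.263. Across the 6 fits that left out 1 mouse the log2 fold change ran from -1.47 to -0.98, below 0 in each, and the edgeR adjusted p from 0.0173 to 0.986.

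In the authors' deposited table Npas4 has a DESeq2 score of 6.16 for wild type over deficient, the third largest in size of 20593 scores, but no p-value. Arc has a score of 2.16 and likewise no p-value in the authors' deposited table. Rows with a score and no p-value number 40 in that table, so 2 of the 10 genes are among them. The authors' deposited table lists an adjusted p for the other 8 genes, from 0.976 for Btg2 to 0.9997, and for 18 genes (0.152% of those with an adjusted p) it is under 0.05. DESeq2 run again on the counts gave a p for both Npas4 and Arc. In that run the largest Cook's distance, which measures how much 1 library moves a gene's fit, was 1.52 for Npas4 at wild-type mouse 3 and 1.69 for Arc at wild-type mouse 1, the highest values among the 10 genes and below the cutoff of 18.

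The Nr4a genes encode orphan nuclear receptors, transcription factors with no established natural ligand, and all 3 are induced by neuronal activity. Nr4a1 (Nur77) had 42.4, 32.7 and 43.3 CPM in the deficient group against 60.7, 47.0 and 34.6 CPM in the wild-type group. The genotypes overlapped, with wild-type mouse 1 highest and wild-type mouse 3 below 2 of the deficient mice (log2 fold change -0.27, SE 0.26, edgeR adjusted p = 0.938). The log2 fold change of Nr4a1 was -0.04 without wild-type mouse 1, -0.15 without deficient mouse 2 and -0.46 without wild-type mouse 3. Nr4a3 (Nor1) had 32.8, 28.3 and 29.7 CPM in the deficient group against 40.2, 34.3 and 24.3 CPM in the wild-type group. Its 3 deficient values all lay within the wild-type range (log2 fold change -0.12, SE 0.20, edgeR adjusted p = 0.967), and without wild-type mouse 1 the sign turned, at 0.06 (SE 0.14, edgeR adjusted p = 1.00). Without wild-type mouse 3 the log2 fold change of Nr4a3 was -0.30, and it was -0.18 and -0.07 without deficient mouse 1 and 2.

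Nr4a2 (Nurr1), which is also required for midbrain dopamine neurons and is present in unstimulated cortical and claustral neurons, had 46.4, 41.3 and 43.8 CPM in the deficient group against 43.7, 45.1 and 37.4 CPM in the wild-type group. The groups overlapped and the spread was small, with means of 43.8 ± 2.54 and 42.0 ± 4.13 CPM (SD, n = 3 each). The log2 fold change was 0.06 (SE 0.07) with an edgeR adjusted p of 0.940, and it became -0.02 (SE 0.06, edgeR adjusted p = 0.969) without wild-type mouse 3 and 0.02 to 0.11 without any other mouse. Nr4a1 and Nr4a3 ran alike over the mice. Their deviations in log2 CPM from each gene's own mean differed by a root mean square of 0.13 over the 6 mice, the second smallest of the 45 pairs of genes, and for both wild-type mouse 1 was the highest and wild-type mouse 3 the lowest of its genotype.

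Arc (chromosome 15, 74669083 to 74672570, minus strand) encodes a cytoskeleton-associated protein that promotes removal of AMPA receptors from synapses. The deficient mice had 1884, 1792 and 1729 counts of it, or 84.1, 72.8 and 84.7 CPM. The wild-type mice had 4162, 1904 and 2422 counts, or 184.7, 103.1 and 101.3 CPM. No deficient mouse reached the lowest wild-type mouse, and wild-type mouse 1 stood apart from the rest of its group. The means were 80.5 ± 6.71 and 129.7 ± 47.6 CPM (SD, n = 3 each), with a log2 fold change of -0.69 (SE 0.30, unadjusted p = 0.0790, edgeR adjusted p = 0.875). Without wild-type mouse 1 the difference was smaller and steadier, at -0.35 (SE 0.07, edgeR adjusted p = 0.297).

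**Figure D2:**
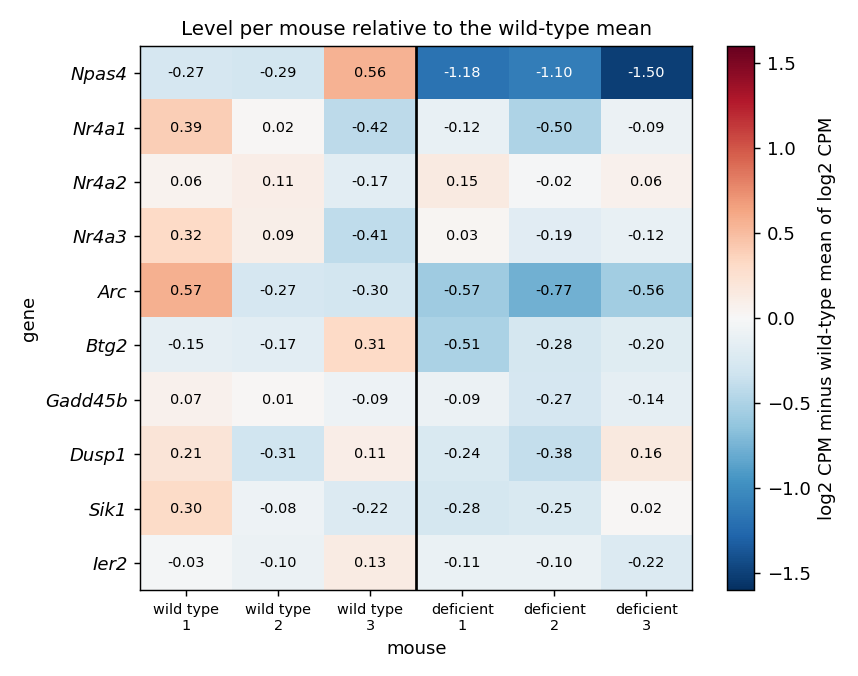
Heat map of log2 CPM minus the gene's wild-type mean of log2 CPM, with genes in rows and the 6 mice in columns, wild type left of the line. Deficient mouse 2 is below the wild-type mean for every gene, wild-type mouse 1 is high for Arc, Nr4a1, Nr4a3 and Sik1, and wild-type mouse 3 is high for Npas4 and Btg2 and low for Nr4a1 and Nr4a3.

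Btg2 and Gadd45b act on growth and DNA. Btg2 (chromosome 1, 134075170 to 134079120, minus strand) encodes an antiproliferative protein that recruits the deadenylase complex to transcripts. It had 10.9, 12.7 and 13.5 CPM in the deficient group against 14.02, 13.8 and 19.3 CPM in the wild-type group. The genotypes were separated by a narrow gap, and wild-type mouse 3 was again the highest (log2 fold change -0.35, SE 0.14, unadjusted p = 0.0263, edgeR adjusted p = 0.796). Without that mouse the log2 fold change was -0.17. Gadd45b, a stress-response gene linked to activity-dependent DNA demethylation in neurons, had 10.2, 9.01 and 9.84 CPM in the deficient group against 11.4, 10.99 and 10.2 CPM in the wild-type mice. Its highest deficient mouse lay just under its lowest wild-type mouse, by 0.0302 CPM (log2 fold change -0.17, SE 0.09, edgeR adjusted p = 0.885).

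Dusp1 and Sik1 limit the signals that induce them. Dusp1 encodes a phosphatase that switches off MAP kinases. It had 23.2, 21.1 and 30.7 CPM in the deficient group against 31.7, 22.1 and 29.6 CPM in the wild-type group. The genotypes overlapped (log2 fold change -0.16, SE 0.19, edgeR adjusted p = 0.946). The log2 fold change of Dusp1 was -0.05 without deficient mouse 2 and -0.06 without wild-type mouse 1, but -0.33 without deficient mouse 3 and -0.30 without wild-type mouse 2. The GENCODE gene overlaps Ergic1 and Gm8225 on the opposite strand, and AC122252.4 and AC122252.1 on its own strand. These overlaps are between whole gene spans, and whether exons are shared was not examined. Reads from any exon shared with the opposite strand cannot be assigned without the strand setting. Strand cannot separate reads shared with the genes on its own strand. Sik1 encodes a kinase that keeps the CREB coactivators of the CRTC family out of the nucleus. It had 11.96, 12.3 and 14.8 CPM in the deficient group against 18.02, 13.8 and 12.5 CPM in the wild-type mice, an overlap in which wild-type mouse 1 was highest (log2 fold change -0.19, SE 0.14, edgeR adjusted p = 0.909). Without wild-type mouse 1 the log2 fold change of Sik1 was -0.01, and it was -0.30 without wild-type mouse 3 and -0.29 without deficient mouse 3.

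Ier2, an early response gene whose protein has been linked to transcriptional control, had 7.36, 7.39 and 6.81 CPM in the deficient group against 7.77, 7.42 and 8.66 CPM in the wild-type group. The genotypes did not overlap, but deficient mouse 2 and wild-type mouse 2 were almost equal (log2 fold change -0.15, SE 0.11, edgeR adjusted p = 0.903). Without wild-type mouse 3 the log2 fold change of Ier2 was -0.08.

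**Figure D3:**
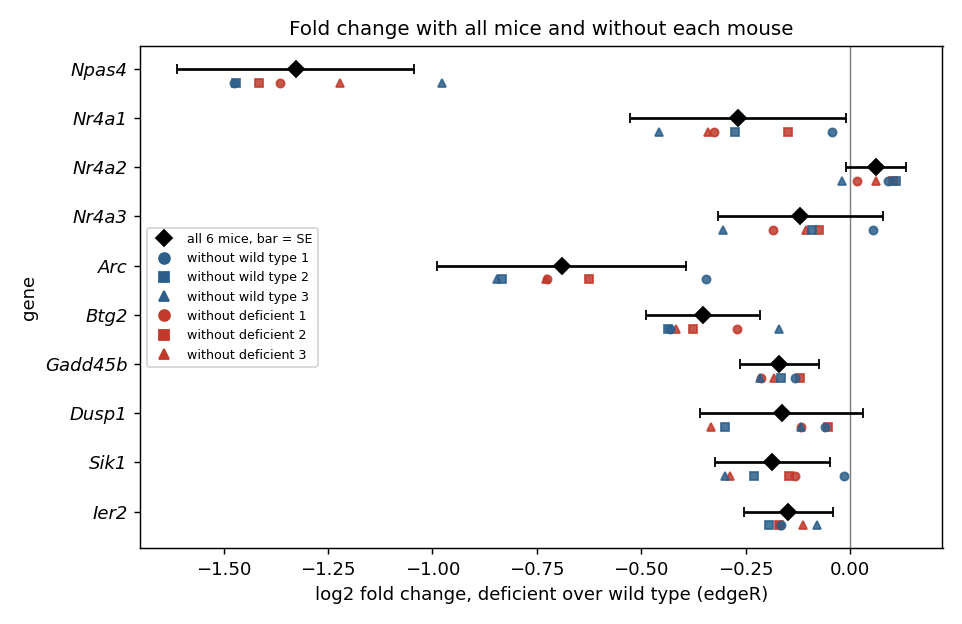
Log2 fold change of deficient over wild type (horizontal axis) for each gene from edgeR with all 6 mice (diamond, bar = SE) and with 1 mouse left out (small symbols under it, coloured by the genotype of the mouse left out). Npas4 stays at or below -0.98 in every fit, Arc moves to -0.35 without wild-type mouse 1, and Nr4a2 and Nr4a3 each cross 0 in 1 fit.

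Among the mice, the highest value belonged to wild-type mouse 1 for 6 of the genes, Nr4a1, Nr4a3, Arc, Gadd45b, Dusp1 and Sik1, and to wild-type mouse 3 for Npas4, Btg2 and Ier2. Wild-type mouse 3 was also the lowest of all 6 mice for Nr4a2 and Nr4a3, so the wild-type mice did not share 1 profile. Relative to the wild-type mean, the mean log2 CPM of the 10 genes was -0.29, -0.39 and -0.26 in the deficient group against 0.15, -0.10 and -0.05 in the wild-type group. With Npas4 and Arc set aside it was -0.15, -0.25 and -0.07 in the deficient mice and 0.15, -0.05 and -0.09 in the wild-type mice, and the genotypes then overlapped. The spread of log2 CPM between mice was larger in wild type for 8 of the 10 genes, against 51.3% of all genes, and at least 2 times larger for 3, Npas4, Nr4a3 and Arc, against 20.3%.

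Variation between mice of the same genotype was high for most of the 10 genes. The biological coefficient of variation, which is edgeR's estimate of the relative spread between mice beyond counting error, had a median of 0.137 over the 10 genes against 0.0623 over all genes tested. It was above that of 90% of all tested genes, where 10% of genes lie by construction, for 5 of them, with Arc at 0.248, Npas4 at 0.221, Nr4a1 at 0.214, and both Nr4a3 and Dusp1 at 0.163. Within the tenth of genes of like level, 7 of the 10 exceeded 90% of genes, as Btg2 and Sik1 joined those 5. Nr4a2 was at 0.0603, Gadd45b at 0.0678 and Ier2 at 0.0735, which were above 86.5%, 31.7% and 5.52% of genes of like level.

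**Figure D4:**
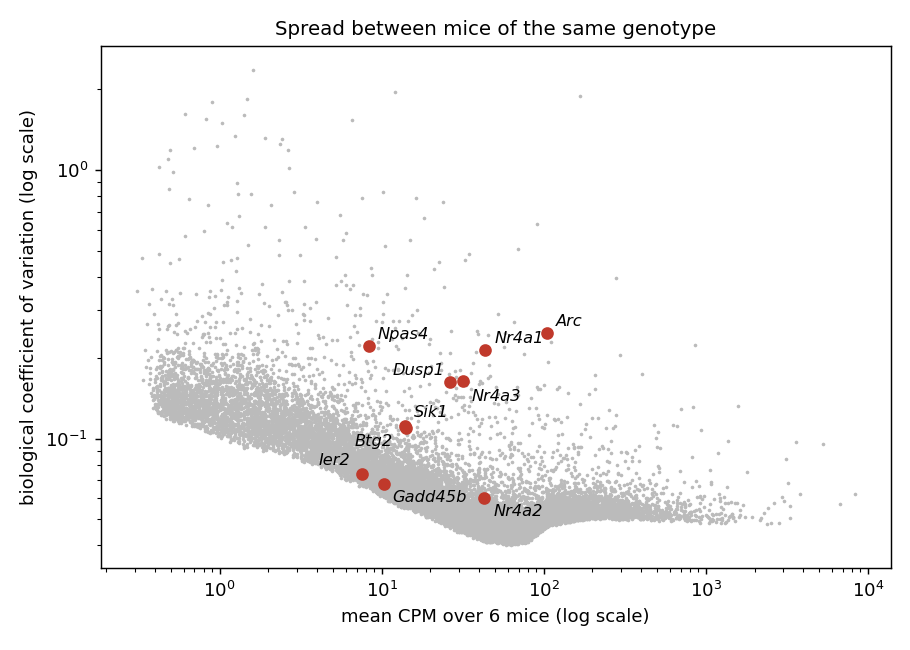
Biological coefficient of variation (vertical log axis) against mean CPM over the 6 mice (horizontal log axis) for the 15030 genes tested in grey, with the 10 genes in red. Arc, Npas4, Nr4a1, Nr4a3 and Dusp1 lie above the main band of genes at their level, and Nr4a2, Gadd45b and Ier2 lie closer to it or within it.

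Levels were ordered between genes after division by the exon length in GENCODE M21, taken over all transcripts of a gene. The gene models behind the counts are not given, so the order holds only for these lengths. Per kilobase, Arc was highest in wild-type mice at 42.4 ± 15.6 CPM per kb (SD, n = 3), above the range of every other gene. Nr4a1 followed at 13.5 ± 3.73 and Nr4a2 at 10.4 ± 1.02 CPM per kb. Then came Dusp1, Gadd45b, Btg2, Nr4a3 and Ier2, from 8.40 down to 5.22 CPM per kb. From Nr4a1 to Ier2 each gene overlapped the next in this order, and Sik1, at 2.88 ± 0.564 CPM per kb, lay below Ier2 without overlap. Npas4 was last at 2.87 ± 1.05 CPM per kb in wild type, within the range of Sik1. In the deficient mice Npas4 stood at 1.15 ± 0.167 CPM per kb and no longer overlapped Sik1, at 2.54 ± 0.308 CPM per kb.

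Other genes of the activity response were compared by the same fit. None of those tested in any of the groups below passed 5% FDR in either direction in edgeR or limma-voom. DESeq2 called 2 of them, Fos (adjusted p = 7.33e-05) and Junb (adjusted p = 0.0488), both among the 11 AP-1 and Egr genes, against 0.141% of all genes. At an unadjusted edgeR p under 0.05 there were 3 lower of 11 AP-1 and Egr genes, 2 lower of 16 late genes and 1 lower of 22 upstream genes, against 3.30% of all genes, and 1 higher of 24 other early genes, against 2.56% of all genes. The shares of the upstream and the other early genes were near those of all genes. The AP-1 and Egr genes, the neighbouring families of immediate early factors, had 10 of 11 log2 fold changes below 0 with a median of -0.25. Over all genes 49.2% were below 0. Fos had 13.8 ± 1.58 CPM in deficient and 22.6 ± 3.78 CPM in wild-type mice (SD, n = 3 each, log2 fold change -0.72, SE 0.12, edgeR adjusted p = 0.117), and Junb and Egr2 stood at -0.41 (SE 0.10) and -0.94 (SE 0.30). Of 24 other early genes tested, 17 were below 0 (median -0.08). They include Klf6, a zinc finger factor, at 0.14 (SE 0.06), Ier5l at -0.16 (SE 0.08) and Nfil3, a bZIP repressor, at -0.23 (SE 0.11).

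Genes that are induced later showed no common direction, with 8 of 16 below 0 and a median of 0.0010. Pdyn, which encodes the opioid precursor prodynorphin, had 27.3 ± 1.15 CPM in deficient and 33.3 ± 2.46 CPM in wild-type mice (SD, n = 3 each, log2 fold change -0.28, SE 0.07, edgeR adjusted p = 0.356). Pcsk1, a convertase that cuts neuropeptide precursors, had 29.0 ± 0.489 and 34.6 ± 3.01 CPM (SD, n = 3 each, log2 fold change -0.26, SE 0.07, edgeR adjusted p = 0.462). For these 2 of the 16 late genes all deficient mice lay below all wild-type mice, against 5.49% of all genes. The same held for 3 of 11 AP-1 and Egr genes (Fos, Junb and Egr2). It also held for 1 of 22 upstream genes (Mef2d) and 1 of 24 other early genes (Ier5l), shares near that of all genes. Penk, the enkephalin precursor, stood at 0.11 (SE 0.06).

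Upstream signalling genes, which carry calcium entry to the nucleus, differed little. Of 22 tested, 18 were below 0, against 49.2% of all genes, but the differences were small. The median was -0.03, against 0.0018 over all genes, and the range -0.15 to 0.09. The lowest was Cacna1c, an L-type calcium channel subunit, at -0.15 (SE 0.07, edgeR adjusted p = 0.850), followed by p by the MEF2 factor Mef2d at -0.09 (SE 0.05) and the histone acetyltransferase Ep300 at -0.10 (SE 0.05). Among 9 partners of the encoded proteins, 5 were below 0 (median -0.01), with Arnt2, the dimer partner of Npas4, at -0.05 (SE 0.06), the MAP kinase Mapk14 at -0.05 (SE 0.05) and the kinase Stk11 at -0.04 (SE 0.05).

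**Figure D5:**
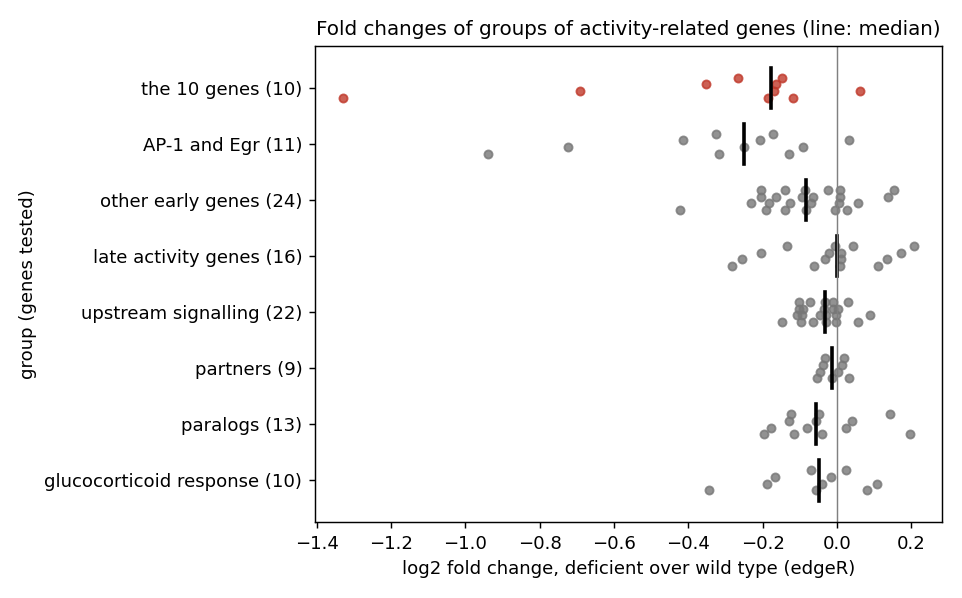
Log2 fold change of deficient over wild type (horizontal axis) of every tested gene in each group, with the number of genes in brackets and a black line at the median. The 10 genes (red) and the AP-1 and Egr genes have medians of -0.18 and -0.25, and the medians of the other groups lie between -0.08 and 0.0010.

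Markers of inhibitory neurons, cerebellum, striatum and blood each had log2 fold changes of a single sign. None of the markers passed 5% FDR with any of the 3 tools, and the summed level of each list other than that of hippocampus overlapped. The 5 inhibitory neuron markers all had log2 fold changes above 0, from 0.02 to 0.09. All 6 cerebellum markers were detected, at a sum of 858.8 to 1076 CPM in deficient and 815.0 to 935.8 CPM in wild-type mice. All 6 had log2 fold changes above 0, and 3 of them, Zic1 at 0.25 (SE 0.06, without overlap), Cbln1 at 0.19 (SE 0.07) and Gabra6 at 0.33 (SE 0.13), had an unadjusted edgeR p under 0.05. Over all genes 2.56% were higher at that p, and 5.70% were higher without overlap. The 6 cortex markers summed to 376.5 to 415.9 CPM and 383.8 to 407.9 CPM, and the 6 striatum markers to 391.7 to 465.9 CPM and 453.6 to 467.7 CPM, in deficient and wild-type mice. The log2 fold change was below 0 for 6 of 6 striatum and 5 of 6 cortex markers. Among the cortex markers 1, Cux2 at -0.11 (SE 0.05), had an unadjusted edgeR p under 0.05, against 3.30% of all genes lower. Its genotypes did not overlap, against 5.49% of all genes lower. All 7 blood markers were detected, at a sum of 63.6 to 86.3 CPM in deficient and 52.5 to 67.0 CPM in wild-type mice. All 7 had log2 fold changes above 0, and Hba-a1 at 0.47 (SE 0.10, without overlap) and S100a9 at 0.91 (SE 0.37) had an unadjusted edgeR p under 0.05. Sums for inhibitory neuron, astrocyte, oligodendrocyte, microglia and endothelial markers overlapped between genotypes, with 5 of 5 markers detected in each list. The astrocyte marker Slc1a3, at 0.05 (SE 0.04), and the endothelial marker Tek, at 0.15 (SE 0.09), were higher in deficient mice without overlap. No marker was at 0 in all libraries, and the part of other regions, of cell types or of blood in the differences of the 10 genes was not tested either.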

How the data were processed

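Brain RNA was isolated on columns (Qiagen RNeasy) and sequenced from TruSeq libraries, per the labels' protocols. GRCm38 and DESeq2 are named in the submitters' processing notes, with aligner, counter, gene models and strandedness not given in the sources used here. Raw counts were deposited by the authors, as whole numbers that sum differently for each mouse. Other columns hold, per the file headers, the authors' DESeq2 mean normalized count (a linear signal), log2 fold change with its SE, test score, p-value and adjusted p-value.

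The count test was that of edgeR 4.0.16 in R 4.3.3, using TMM factors, filterByExpr, robust quasi-likelihood fits and two-sided F tests, adjusted by Benjamini and Hochberg over 15030 genes with calls under 0.05. Ratios are deficient over wild type, and SE is the fold change's size divided by the square root of F. Log2 CPM used a prior count of 2. Rows with a 5-digit number for a symbol (27, 0.350% of counts) stayed in the totals and the fit. Mice were grouped by their titles, with 3 per genotype, and no litter, batch or day is labelled. The smallest chi-square statistic per degree of freedom between libraries was 3.94, so every pair of libraries differed by more than sampling noise.

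Positions and exon lengths come from GENCODE M21 (GRCm38). A blastn 2.17.0 search found no other gene's transcript with 95% identity or more over at least 200 bases for any of the 10 genes. Of 170 genes in the other lists, 168 were found by symbol and 2 by an older symbol. Members and lists were chosen with earlier results of these data known. Named genes beyond the 10 and Kdm6a include the 3 with the smallest p in each list of activity-related genes. They also include the 5 genes most like Npas4 and Arc in log2 CPM over the mice, among those with a mean of at least 1 CPM. Single markers were named after their values were seen, for a small p, a lack of overlap or a large part of a sum. Alternatives were DESeq2 1.42.0 and limma-voom (limma 3.58.1) as tests, RLE scaling, a filter at 1 CPM on average or none, a block for the mouse number, each mouse left out, an FDR of 0.10 and a prior count of 0.5.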

Additional observations from a re-analysis of the deposited data

How the results depend on the processing

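The fold change stayed below 0 for Npas4, Arc, Nr4a1, Btg2, Gadd45b, Dusp1, Sik1 and Ier2 under every alternative run, and no adjusted p of theirs passed 0.05 except for Npas4 with DESeq2 (log2 fold change -1.33, adjusted p = 1.9e-06) and without wild-type mouse 3 (-0.98, edgeR adjusted p = 0.0173). Leaving out 1 mouse gave -1.47 to -0.98 for Npas4. Without wild-type mouse 3 the log2 fold change of Nr4a2 was -0.019, in a range of -0.019 to 0.11, and without wild-type mouse 1 that of Nr4a3 was 0.056, in a range of -0.30 to 0.056, each the only change of sign, and the cause was not tested. The median over the 10 genes was -0.31 to -0.10 without 1 mouse and -0.18 to -0.17 otherwise. The number of the 10 called was 1 with DESeq2, 0 to 1 without 1 mouse and 0 elsewhere, also at an FDR of 0.10. Genotypes did not overlap for 5 to 7 genes without 1 mouse, where fewer mice make a gap easier, and for 5 with other scaling or filters. The shares of all genes without overlap (5.49% lower, 5.70% higher) were taken with all 6 mice only. The counts without 1 mouse therefore cannot be judged against all genes. Over all genes the number called was 25 with no filter on low counts, 20 with DESeq2, 15 with the mouse number as a block and 3 to 17 without 1 mouse, against 7; apart from the construction of those fits the cause was not tested.

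The mouse numbers pair nothing in the labels, and deviations from the genotype means of same-numbered mice correlated at -0.00063, 0.081 and 0.048 for mice 1, 2 and 3. With the number as a replicate block 0 of the 10 genes were called, and Npas4 stood at -1.28 (SE 0.30, edgeR adjusted p = 0.631). Counting error, as 1 over the square root of the mean count, was 0.0773 for Ier2 and 0.0665 for Gadd45b, near their spread between mice (biological coefficients of variation of 0.0735 and 0.0678), and smaller than that spread for each of the other 8 genes.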

Other observations

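Paralogs of the 10 genes were also measured. Of 13 paralogs tested, 9 had log2 fold changes below 0 (median -0.06) and none passed 5% FDR in edgeR. Npas2, a circadian bHLH-PAS factor, stood at -0.12 (SE 0.06), the kinase gene Sik2 at -0.13 (SE 0.07) and the phosphatase gene Dusp10 at 0.14 (SE 0.08). Genes that respond to glucocorticoids, which also induce Dusp1, had 7 of 10 log2 fold changes below 0 (median -0.05), and none passed. Cdkn1a, a cell cycle inhibitor, stood at -0.19 (SE 0.09), Nfkbia, an inhibitor of NF-kappaB, at -0.17 (SE 0.09), and the metallothionein gene Mt1 at 0.11 (SE 0.06).

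Outside the 10 genes, the profile most like that of Arc over the 6 mice belonged to Fos. Deviations in log2 CPM from each gene's own mean differed from those of Arc by a root mean square of 0.17 for Fos, 0.19 for Popdc3, 0.23 for Cdr1, 0.23 for Socs3 and 0.24 for 1110019D14Rik, where those of Arc themselves had a root mean square of 0.43. For Npas4, at 0.70 itself, the nearest of 13820 genes were Tmprss7 at 0.38, Fcer2a and Tcap at 0.39, Slc16a10 at 0.40 and Ppl at 0.41, all with means of 1.07 to 2.95 CPM. None of these candidates thus ran as close to Npas4 as Fos did to Arc.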
